A study of Mus musculus with 24 samples.

Results

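The 8 genes described here, Acta2, Tpm2, Tagln, Cnn1, Lmod1, Myh11, Myl9 and Des, encode proteins of the contractile apparatus of smooth muscle. They were taken by name from the 45468 genes of the count tables of mouse brain endothelial fractions, and they were measured in all 24 libraries. The fractions came from dissociated brains, from which cells with the leukocyte protein CD45 were removed and cells with the endothelial protein CD31 were then captured on beads. The 8 groups, of 3 libraries each, were KO and wt at embryonic stage E15.5, at postnatal days 5 (P5) and 9 (P9), and in adults. KO mice (Sox17iECKO) were Sox17flox/flox and carried Cdh5(PAC)-Cre-ERT2, a recombinase that an endothelial promoter drives and tamoxifen switches on. The wt mice had the same Sox17flox/flox alleles without the recombinase. Tamoxifen was given in both genotypes. For E15.5 the mothers had 2 injections of 1 mg, at 11.5 and 13.5 days after conception, and pups of P5 and P9 had 100 µg on postnatal day 1. Adults had 4 injections of 1.5 mg from an age of 6 weeks and were used 1 week after them. The labels give 3 independent biological replicates for each timepoint and do not say whether brains were pooled.

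Smooth muscle cells wrap the arteries and arterioles of the brain and set their width, while pericytes sit on capillaries. Both are mural cells, and neither is an endothelial cell. In smooth muscle the actin filament, made of Acta2 protein and lined by tropomyosin, slides along myosin, whose heavy chain is Myh11. The motor is switched on when a kinase phosphorylates the regulatory light chain, Myl9. Pericytes of the brain also make Myl9 and desmin (Des), whereas Acta2, Tagln and Myh11 are the customary markers of arterial smooth muscle. Serum response factor (SRF) with the cofactors myocardin and the MRTF proteins drives many of these genes through the CArG box.

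The bases before the start of 2 of these genes are shown because they carry the CArG-like boxes by which the contractile genes are known to be controlled as a group. The RefSeq promoter table (build GRCm38.p6) held 6 of the 8 genes, and Tagln and Myh11 were not among them. In windows of 300 bases, 250 before and 50 after the RefSeq start, both strands were covered by a search for the CArG box, which reads the same way on either strand, and for a box with 1 inner base changed to G or C. Acta2 and Myl9 held 2 such boxes each, and Cnn1, Tpm2, Des and Lmod1 held none in this window. Of all 32851 promoters in the table, 1.63% held a CArG box, 9.98% held either kind, and 0.822% held at least 2. The 180 bases before the RefSeq start are given 5′ to 3′ on the gene's own strand, with the boxes in capitals. The Acta2 stretch is chr19:34255374-34255553 on the minus strand, and the Myl9 stretch is chr2:156775284-156775463 on the plus strand.
Acta2: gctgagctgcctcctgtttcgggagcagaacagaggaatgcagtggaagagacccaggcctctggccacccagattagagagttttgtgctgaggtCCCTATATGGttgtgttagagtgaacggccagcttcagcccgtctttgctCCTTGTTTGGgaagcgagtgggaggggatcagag
Myl9: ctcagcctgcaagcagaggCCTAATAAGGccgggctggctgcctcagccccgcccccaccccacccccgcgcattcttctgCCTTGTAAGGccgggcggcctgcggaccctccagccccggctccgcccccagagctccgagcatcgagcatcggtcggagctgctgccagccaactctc
The Acta2 boxes began 84 and 34 bases before the RefSeq start, and each had 1 changed inner base. The Myl9 boxes began 161 and 99 bases before it, and only the first was an unchanged CArG box. A match in sequence is a description and shows no binding.

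The libraries held between 12301779 and 19830600 counts in all. The floor taken for a count of 0 was 3 counts, which corresponded to 0.151 to 0.244 CPM by the library's plain total. Such floors cover counting error only. All other CPM are counts scaled to the library's total over the tested genes times its TMM factor, which is edgeR's scaling between libraries. The summed level of 15 endothelial identity markers was 5240 to 6699 CPM at E15.5 and 12660 to 28961 CPM at the later stages, and none of these markers was at 0 in any group. All KO libraries had less Sox17 than all wt libraries of their stage, with log2 fold changes of -3.30, -4.05, -3.82 and -2.49 from E15.5 to adult. The 14 pericyte markers summed to 540 to 5673 CPM over the 24 libraries, and none was at 0 in any group. Markers of striated muscle, which also uses Tpm2 and Des, summed to 4.13 to 18.0 CPM over 15 genes. E15.5 and P5 brains were dissociated with a different kit from P9 and adult brains. The kit and the stage thus cannot be told apart between P5 and P9. The same holds for the tamoxifen schedule and the stage between embryos, pups and adults. Pups of P5 and P9 all had tamoxifen on postnatal day 1, so the time since it and the stage cannot be told apart either. In these bulk fractions fewer cells of a type and less RNA per cell cannot be told apart.

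The contractile genes were present at low to moderate levels, and Myl9 exceeded the other members at every stage. By the authors' TPM, a level scaled by transcript length, Myl9 averaged 271 over the 24 libraries and reached 609. Acta2 averaged 36.8 TPM, Tpm2 16.2, Tagln 14.6, Des 11.01 and Myh11 6.65, while Lmod1 averaged 0.831 and Cnn1 0.128 TPM. The order of Tpm2 and Tagln changed with stage. Tagln had 31.7 ± 5.77 TPM in adult KO and 30.4 ± 1.82 TPM in adult wt (SD, n = 3 each), above Tpm2, at 12.8 ± 2.31 TPM in adult KO and 12.8 ± 0.734 TPM in adult wt. At P5 Tpm2 was above Tagln in both genotypes, and at P9 the 2 genes overlapped in KO, at 5.59 ± 1.13 TPM for Tpm2 and 5.58 ± 2.27 TPM for Tagln. In adult KO libraries Myl9 had 113 ± 16.3 TPM, Acta2 77.4 ± 16, Myh11 19.7 ± 3.74 and Des 5.47 ± 0.315. In adult wt libraries Myl9 had 120 ± 5.06 TPM, Acta2 80.5 ± 7.57, Myh11 18.0 ± 1.68 and Des 5.64 ± 0.352. The adult order was Myl9, Acta2, Tagln, Myh11, Tpm2 and Des in both genotypes, with no overlap between neighbours in it.

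All coordinates are those of the deposited tables on mm10. Acta2 (ENSMUSG00000035783, chromosome 19, 34241090 to 34255336, minus strand) encodes smooth muscle alpha-actin. Tpm2 (ENSMUSG00000028464, chromosome 4, 43514711 to 43523765, minus strand) encodes beta-tropomyosin, which lies along the actin filament. Tagln (ENSMUSG00000032085, chromosome 9, 45929628 to 45936058, minus strand) encodes transgelin, an actin-binding protein, and overlaps Pcsk7 on the other strand. Cnn1 (ENSMUSG00000001349, chromosome 9, 22099281 to 22109630, plus strand) encodes calponin, which binds actin and restrains the motor. Lmod1 (ENSMUSG00000048096, chromosome 1, 135324807 to 135368065, plus strand) encodes leiomodin, which starts actin filaments. Myh11 (ENSMUSG00000018830, chromosome 16, 14194527 to 14291408, minus strand) encodes the smooth muscle myosin heavy chain. Myl9 (ENSMUSG00000067818, chromosome 2, 156775420 to 156781658, plus strand) encodes the regulatory light chain. Des (ENSMUSG00000026208, chromosome 1, 75360329 to 75368579, plus strand) encodes desmin, an intermediate filament protein. The libraries were strand-specific and the count column used was that of the gene's strand. Of the 50-base words of each longest transcript in GENCODE M21, 0.352% of those of Acta2 also stood in other genes, Actg1 among them, and 0.4% of those of Myh11 also stood in Myh9 or Myh10. For the other 6 genes the share was 0, so few reads could be split with a near copy.

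Cnn1 was close to undetected. Its counts summed to 33 over the 24 libraries, with 0 to 4 counts in a library and 0 in 7 libraries. The 3 libraries of a group summed to 0 counts in E15.5 KO and 2 in E15.5 wt, 3 in P5 KO and 2 in P5 wt, 5 in P9 KO and 6 in P9 wt, and 6 in adult KO and 9 in adult wt. No difference between groups of this size was detectable at this depth, and Cnn1 was below the minimum for testing, an average of 10 counts in 1 or more groups. The other 7 genes passed it and were tested with edgeR among 17159 genes. Below, "called" means an adjusted p under 0.05 by edgeR's quasi-likelihood test with Benjamini-Hochberg adjustment over those genes. Whether the libraries of compared groups overlapped is a description, as the share of all genes without overlap is not given.

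**Figure D1:**
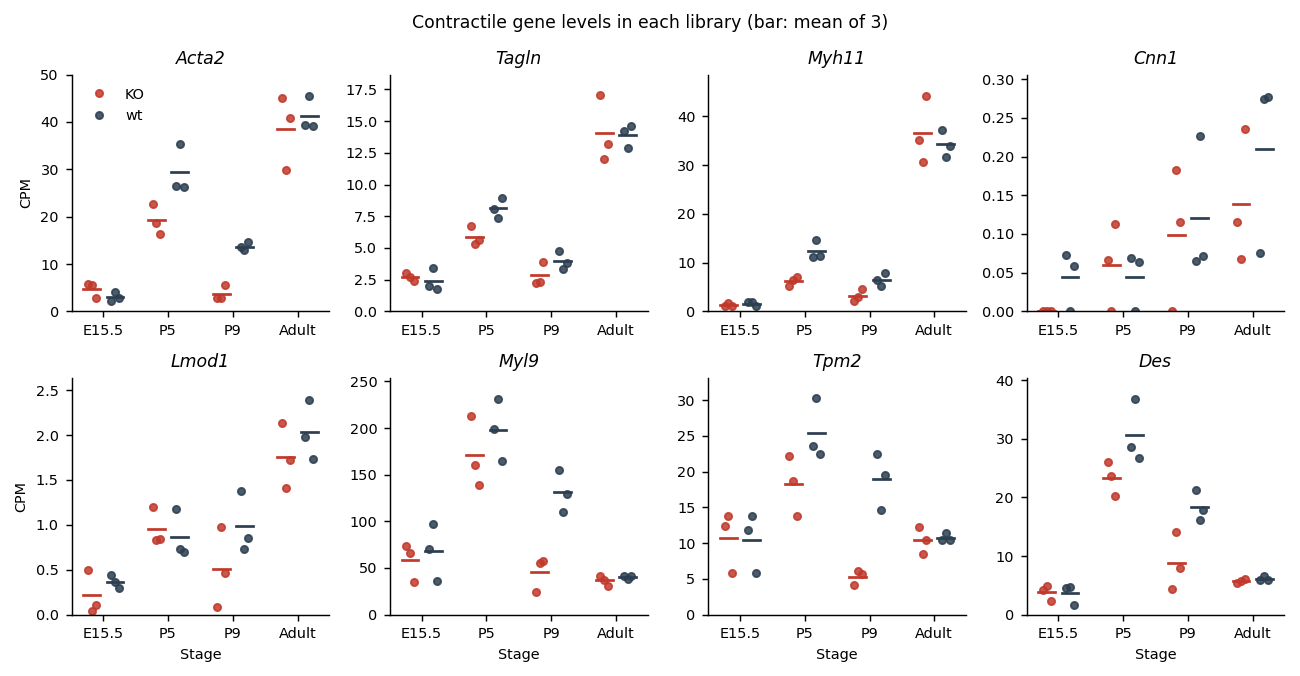
Level of each of the 8 genes in CPM (counts scaled to the library's total and TMM factor) by stage. There is 1 point per library, KO in red left of wt in dark blue, with a bar at the mean of 3 libraries. Acta2, Tagln, Myh11 and Lmod1 had their highest means in adults, and Myl9, Tpm2 and Des at P5. At P9 the KO points of Acta2, Myl9, Tpm2, Myh11 and Des lay below all wt points of that stage.

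The KO comparison asked how loss of Sox17 in the endothelium relates to the RNA of the fraction. All KO mice carried the recombinase and no wt mouse did, so loss of Sox17 and the recombinase itself cannot be told apart. Which contractile genes were called differed between the stages. The test of whether the KO difference itself varied between stages, given below, called 3 of the 7 tested genes. At E15.5 and in adults none was called, at P5 Myh11 was called lower, and at P9 Acta2, Tpm2, Myl9, Myh11 and Des were called lower. None was called higher in KO at any stage.

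At E15.5, 0 of the 7 tested genes were called, where 0.548% of all genes tested were called in either direction (72 higher and 22 lower, against 66 and 37 with scaling to endothelial identity markers). Acta2 had 5.82, 5.57 and 2.79 CPM in the KO libraries, against 2.13, 4.17 and 2.89 CPM in the wt libraries. The groups overlapped, and the log2 fold change of 0.60 ± 0.29 (SE) had an unadjusted p of 0.042 and an adjusted p of 0.92 in edgeR. It was the only one of the 7 with an unadjusted p under 0.05, and DESeq2 and limma also called 0. The other 6 genes had log2 fold changes between -0.56 for Lmod1 and 0.17 for Tagln, and all of them overlapped. Library 3 of each genotype stood apart at this stage. Myl9 had 73.7, 65.9 and 35.1 CPM in KO, against 70.8, 97.0 and 36.0 CPM in wt. The pericyte marker sums were 1493, 1746 and 812 CPM in KO, against 1593, 2093 and 708 CPM in wt, so the low libraries of Myl9 were low for these markers too. Of the 11 arterial endothelial markers other than Sox17, 1 was called lower (Fbln5) and 0 higher, and their sums overlapped. Without both of these libraries 0 of the 7 were called again, with Acta2 at 0.81 (adjusted p 0.70).

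At P5, 1 of the 7 tested genes was called lower in KO, where 0.134% of all genes were. Myh11 had 5.18, 6.52 and 7.15 CPM in the KO libraries, against 11.2, 14.7 and 11.4 CPM in the wt libraries. Every KO library was below every wt library, and the log2 fold change was -0.97 ± 0.22 (adjusted p 0.036). The call is close to the threshold: without any 1 of the 6 libraries it was lost, with adjusted p from 0.076 to 0.28 and fold changes from -1.07 to -0.83, and it was lost in limma (0.081) and with scaling to endothelial identity markers (0.061). Acta2 had 22.7, 18.7 and 16.4 CPM in KO, against 26.4, 35.3 and 26.3 CPM in wt, again without overlap. Its log2 fold change of -0.60 ± 0.24 had an unadjusted p of 0.017 and an adjusted p of 0.47. Tpm2 (-0.48), Tagln (-0.46) and Des (-0.40) also had no overlap between KO and wt libraries and adjusted p of 0.64 to 0.81. These separations are descriptions, with no share of all genes beside them. The pericyte marker sum did not separate the genotypes at P5, at 5673, 4403 and 3578 CPM in KO, against 4649, 5637 and 4322 CPM in wt, with 0 of the 14 markers called. The fibroblast marker sum did, at 610 to 624 CPM in KO, against 697 to 755 CPM in wt, with 0 of 10 tested markers called. The arterial endothelial markers, of which Sox17 itself was left out after the values were seen, summed to 1040 to 1108 CPM in KO, against 1343 to 1520 CPM in wt. Of these 11 genes 3 were called lower (Gja5, Gkn3 and Vegfc) and 0 higher. The part of these shifts in the result was not tested. Set against the pericyte marker sum, the KO libraries had 0.913, 1.48 and 1.999 CPM of Myh11 per 1000 CPM of pericyte markers, against 2.41, 2.61 and 2.63 in the wt libraries. Acta2 gave 3.99, 4.26 and 4.60 in KO, against 5.67, 6.27 and 6.09 in wt, while Myl9 gave 37.6, 36.4 and 38.9 in KO, against 42.8, 41.1 and 38.0 in wt. Tpm2 gave 3.90, 4.24 and 3.87 in KO, against 5.06, 5.36 and 5.202 in wt, and Des gave 4.60, 5.37 and 5.65 in KO, against 6.17, 6.52 and 6.21 in wt. The ratios of Myh11, Acta2, Tpm2 and Des thus lay apart at P5, and those of Myl9, Tagln and Lmod1 overlapped. These ratios are descriptions with no test.

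At P9, 5 of the 7 tested genes were called lower in KO and 0 higher, where 14.6% of all genes were called lower and 13.5% higher. That split depended on scaling: 2497 genes were lower and 2312 higher, against 2206 and 3057 in DESeq2, and 6451 and 724 with scaling to endothelial identity markers, which moves the median of all genes by -0.34. The 5 calls held under all 3. The endothelial scaling lowers most genes in P9 KO, however, so a lower call under it is no separate check. Of its 15 markers 7 were themselves called higher in P9 KO and 2 lower. The lowest fold changes were those of Acta2 and Tpm2. Acta2 had 2.78, 2.92 and 5.47 CPM in the KO libraries, against 13.5, 12.9 and 14.6 CPM in the wt libraries. All KO values were under all wt values, with a log2 fold change of -1.82 ± 0.27 (adjusted p 1.35e-05), 27.2% of the wt mean. Tpm2 had 4.12, 6.07 and 5.64 CPM in KO, against 22.4, 14.7 and 19.6 CPM in wt, a log2 fold change of -1.80 ± 0.30 (adjusted p 5.73e-05). The KO level of Tpm2 was 28.0% of wt, again without overlap. Tagln had 2.27, 2.31 and 3.91 CPM in KO, against 4.78, 3.34 and 3.78 CPM in wt, and KO library 3 lay inside the wt range. Its log2 fold change of -0.45 ± 0.24 was not called (adjusted p 0.16), but was without KO library 3 (-0.76, adjusted p 0.028) and with scaling to endothelial identity markers (0.012). Lmod1, at 1 to 21 counts in these 6 libraries, had a log2 fold change of -0.76 ± 0.55 (adjusted p 0.24), and was called without KO library 2 (-1.41, adjusted p 0.045).

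Both motor genes were called. Myl9 had 24.1, 54.9 and 57.0 CPM in the P9 KO libraries, against 155, 110 and 129 CPM in the P9 wt libraries. The log2 fold change was -1.52 ± 0.31 (adjusted p 0.00055), the KO level was 34.5% of wt, and KO library 1 was the lowest of the 6. Myh11 had 2.19, 2.98 and 4.55 CPM in KO, against 6.41, 5.21 and 7.85 CPM in wt, a log2 fold change of -0.95 ± 0.24 (adjusted p 0.0034). The 2 groups of Myh11 were close but did not overlap. Des, the intermediate filament gene, had 4.37, 14.1 and 8.002 CPM in KO, against 21.2, 16.1 and 17.9 CPM in wt, a log2 fold change of -1.03 ± 0.31 (adjusted p 0.014). The Des call was lost without KO library 1 (-0.74, adjusted p 0.074), without wt library 1 (-0.92, 0.060) and when the 6 P9 libraries were fitted by themselves (0.063). The calls of Acta2, Tpm2, Myl9 and Myh11 held without each of the 6 libraries in turn, with adjusted p of at most 0.026. With the 6 libraries fitted by themselves Myh11 was at 0.049.

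Markers of other mural and perivascular cells and of arterial endothelium moved with them at P9. Of the 11 arterial endothelial markers other than Sox17, 8 were called lower and 1, the Notch ligand Dll4, higher, with a median log2 fold change of -1.48. They summed to 874 to 1046 CPM in KO, against 1356 to 1414 CPM in wt. Of the 14 pericyte markers 10 were called lower and 0 higher, with a median log2 fold change of -0.96 beside 0.02 for all genes tested. They summed to 799, 1985 and 1924 CPM in the KO libraries, against 4132, 3032 and 3774 CPM in the wt libraries, and no marker was at 0. Rgs5, a regulator of G protein signalling and a leading pericyte marker, fell by 1.70 on the log2 scale (adjusted p 0.00020). Of 10 fibroblast markers tested 8 were called lower and 1 higher, and their sum was 246 to 328 CPM in KO, against 442 to 557 CPM in wt. The endothelial identity markers, 7 of 15 called higher and 2 lower, summed to 23495 to 28961 CPM in KO, against 20206 to 20648 CPM in wt. The part of these shifts in the contractile result was not tested. As a description, Myl9 had 30.1, 27.7 and 29.6 CPM per 1000 CPM of pericyte markers in KO, against 37.4, 36.2 and 34.3 in wt, so its ratios lay apart but closer than its levels. Acta2 had 3.48, 1.47 and 2.84 in KO, against 3.28, 4.26 and 3.88 in wt, with an overlap. Tpm2 had 5.16, 3.06 and 2.93 in KO, against 5.43, 4.84 and 5.18 in wt, also with an overlap. The ratio of Myh11 was 2.74, 1.50 and 2.36 in KO, against 1.55, 1.72 and 2.08 in wt, and that of Tagln 2.84, 1.16 and 2.03, against 1.16, 1.102 and 1.003 in wt. Des had 5.48, 7.10 and 4.16 in KO, against 5.13, 5.32 and 4.75 in wt. Relative to the pericyte markers, then, Myh11, Des and Lmod1 overlapped between the genotypes. The Tagln ratios were higher in KO but only just lay apart. The lowest in KO was 1.163 (library 2, 38 counts), and the highest in wt was 1.156 (library 1, 73 counts). Of 7 astrocyte markers 4 were called higher in P9 KO and 0 lower, with sums of 607 to 881 CPM in KO, against 344 to 428 CPM in wt.

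**Figure D2:**
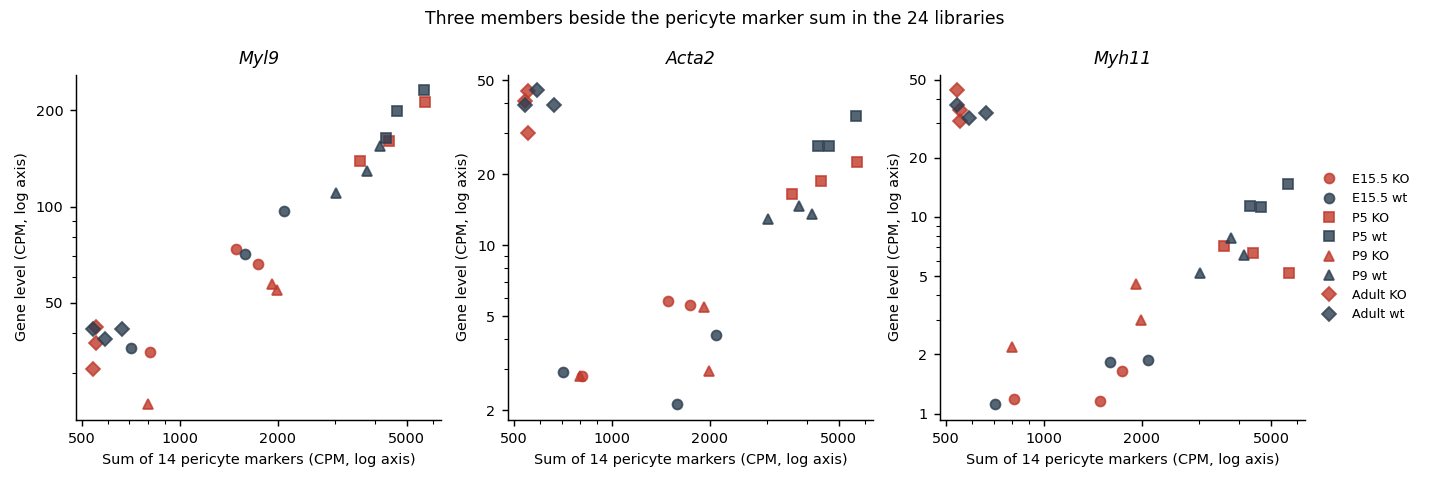
Level of Myl9, Acta2 and Myh11 (CPM, log axes) against the summed level of 14 pericyte markers (CPM), 1 point per library, KO in red and wt in dark blue, with a shape per stage. At P5 and in P9 wt both the pericyte sum and Myl9 were high, while in adults Acta2 and Myh11 stood high at a pericyte sum of 540 to 663 CPM.

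In adults 0 of the 7 tested genes were called, where 0.0874% of all genes were called in either direction. Acta2 had 45.0, 29.8 and 40.9 CPM in the KO libraries, against 39.4, 45.5 and 39.2 CPM in the wt libraries. Myh11 had 35.1, 30.6 and 44.1 CPM in KO, against 37.3, 31.8 and 33.9 CPM in wt. The groups of all 7 genes overlapped, with log2 fold changes between -0.20 for Lmod1 and 0.09 for Myh11. None of the 7 had an unadjusted p under 0.05 in edgeR, and DESeq2 and limma also called 0. The 11 arterial endothelial markers other than Sox17 summed to 956 to 1092 CPM in adult KO, against 1224 to 1332 CPM in adult wt, with 2 called lower (Dll4 and Gkn3) and 0 higher. The approximate 95% interval of the difference was -0.59 to 0.39 for Acta2, -0.33 to 0.52 for Myh11 and -0.79 to 0.53 for Myl9, so changes of the size seen at P9 in Acta2 and Myl9 lay outside it.

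Averaged over the 4 stages, 4 of the 7 were called lower in KO and 0 higher, where 3.87% of all genes were called lower and 4.8% higher (664 and 823 genes, against 3240 and 384 with scaling to endothelial identity markers). Myh11 had a log2 fold change of -0.51 ± 0.12 (adjusted p 0.0063), Tpm2 -0.57 ± 0.14 (0.011), Acta2 -0.48 ± 0.13 (0.018) and Myl9 -0.52 ± 0.15 (0.031). The call of Myl9 was lost without any 1 of 9 of the 24 libraries, with adjusted p of 0.050 to 0.066, and that of Acta2 without E15.5 wt library 2 (0.050). Des was called without E15.5 wt library 3 (0.046) or P9 KO library 2 (0.037). The test of whether the KO difference varied between stages called 3 of the 7, where 13.5% of all genes were called. These were Acta2 (adjusted p 0.00048), Tpm2 (0.0072) and Myh11 (0.030). Myl9 missed the threshold (0.062). The Myh11 call was lost without any 1 of 7 libraries (0.050 to 0.085), while Myl9 was called without any 1 of 4 (0.022 to 0.042) and Des without P9 KO library 2 (0.031).

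**Figure D3:**
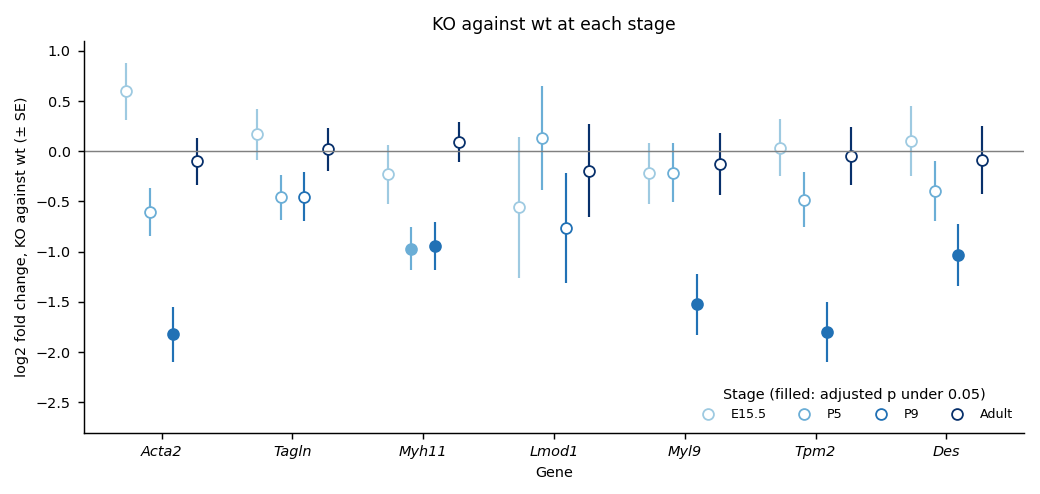
Log2 fold change of KO against wt with its SE for the 7 tested genes at E15.5, P5, P9 and adult, with filled points where the adjusted p was under 0.05. The filled points are Myh11 at P5 and Acta2, Myh11, Myl9, Tpm2 and Des at P9.

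Genes that work with the members were called mostly lower at P9. Of 34 contractile partners (filament, anchoring, channel and receptor genes of smooth muscle), 32 were tested, and 14 were called lower and 5 higher in P9 KO, with a median log2 fold change of -0.46 beside 0.02 for all genes. As 14.6% of all genes were called lower and 13.5% higher, the count of higher partners was near that of all genes. Synpo2, an actin-binding protein of the contractile apparatus, had 10.8 ± 2.47 CPM in KO and 30.3 ± 4.57 CPM in wt (SD, n = 3 each), a log2 fold change of -1.48 (adjusted p 1.76e-05). Cald1, caldesmon of the thin filament, had 123 ± 38.3 CPM in KO and 284 ± 49.2 CPM in wt, -1.21 (adjusted p 0.00031). The anchoring gene Pgm5 rose by 0.84 on the log2 scale (adjusted p 9.99e-05). Actb and Actg1, the cytoplasmic actins, had 2133 ± 153 and 521 ± 17.7 CPM in P9 KO and 2318 ± 22.0 and 642 ± 56.2 CPM in P9 wt, and were looked at after the Acta2 values were seen. At the other stages edgeR called 0 of the 32 partners. Averaged over stages 3 partners were lower, Synpo2 (-0.81, adjusted p 2.62e-05), Casq2 and Myl6, and 1, Pgm5, was higher.

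Of 17 regulators of smooth muscle genes, 16 were tested. In P9 KO 4 were called lower and 1 higher, with a median log2 fold change of -0.30, beside the same 14.6% and 13.5% of all genes, so these few calls are not far from the background. The mural Notch receptor Notch3 had 90.8 ± 39.6 CPM in KO and 192 ± 31.8 CPM in wt (SD, n = 3 each), -1.08 (adjusted p 0.017). The Notch target Heyl fell by 1.13 on the log2 scale (adjusted p 0.017) and the T-box factor Tbx2 by 1.09 (adjusted p 0.011). Mkl2, which encodes the SRF cofactor MRTF-B, rose by 0.61 (adjusted p 6.12e-06). Myocd, the gene of myocardin, had 1 to 15 counts summed over the 3 libraries of a group and was not tested. In the other stages and in the average over them 0 of the 16 were called.

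All 14 genes listed for endothelial signalling to mural cells, not all of them ligands, were tested. In P9 KO 6 were called higher and 1 lower, where 13.5% and 14.6% of all genes were. Ctgf, a matrix-associated growth factor, had 1497 ± 450 CPM in KO and 62.5 ± 12.5 CPM in wt (SD, n = 3 each), a log2 fold change of 4.58 (adjusted p 1.06e-12). Angpt2, the ligand that antagonises the receptor Tek, had 650 ± 213 CPM in KO and 96.5 ± 8.52 CPM in wt (2.75, adjusted p 1.62e-08). Edn1, the precursor of the vasoconstrictor endothelin, rose by 1.86 and Cyr61, a relative of Ctgf, by 1.75. At E15.5, where 0.42% of all genes were called higher, Angpt2 alone was called (1.28, adjusted p 0.015), at P5 none, and in adults the Notch ligand Dll4 alone, lower in KO (-0.75, adjusted p 0.011). Averaged over stages 5 were higher and 1, Tgfb2, lower (-0.37, adjusted p 6.32e-05).

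In wt animals the genes followed different courses with stage. Acta2, Tagln and Myh11 were higher at P5 than at E15.5, lower at P9 than at P5, and had their highest means in adults. Myl9, Tpm2 and Des were also higher at P5 than at E15.5. Their means were lower at P9 than at P5 too, though not called in the fit of all 24 libraries. Unlike the first 3 genes, they were lower in adults than at P9. These comparisons set wt groups against each other, and KO libraries entered only the shared estimate of the spread.

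From E15.5 to P5, with 1 kit for both, 6 of the 7 tested genes were called higher and 0 lower, where 36.2% of all genes were called higher and 30.4% lower (6215 and 5220 genes, against 596 and 13974 with scaling to endothelial identity markers). Acta2 had 26.4, 35.3 and 26.3 CPM in P5 wt, against 2.13, 4.17 and 2.89 CPM in E15.5 wt, a log2 fold change of 3.20 ± 0.28 (adjusted p 6.31e-10). Des (3.06) and Myh11 (2.86) followed, then Tagln (1.72), Myl9 (1.54) and Tpm2 (1.27), with adjusted p of at most 0.00038. Lmod1 had a log2 fold change of 1.02 ± 0.59 (adjusted p 0.065). No gene of the 7 overlapped between the stages, a description with no share of all genes beside it. Of the 14 pericyte markers 12 were called higher too. So were 15 of 15 endothelial identity markers, with a median log2 fold change of 1.73. The endothelial identity sum, which was not tested, was 18498 to 20734 CPM in P5 wt, against 5240 to 6275 CPM in E15.5 wt. Of the microglia and macrophage markers 7 of 8 were higher, with sums of 45.3 to 76.5 CPM in P5 wt, against 6.96 to 13.1 CPM in E15.5 wt. Of the astrocyte markers 5 of 7 were higher, with sums of 296 to 423 CPM in P5 wt, against 113 to 159 CPM in E15.5 wt, and Gfap, an astrocyte filament gene, rose by 7.30 on the log2 scale (adjusted p 5.45e-15). Of the 11 arterial endothelial markers 9 were higher and 1 lower, and of 10 fibroblast markers 3 were higher. The part of these shifts in the result was not tested. Scaled to the endothelial identity markers, which moves the median of all genes by -1.49 on the log2 scale, Acta2, Des and Myh11 were still called higher. Tagln was at 0.15, and Myl9, Tpm2 and Lmod1 turned to -0.10, -0.37 and -0.33, with adjusted p of 0.23 to 0.76 for these 4. Of the 32 partners 23 were called higher and 5 lower, among them Casq2, a calcium-binding protein of the sarcoplasmic reticulum (3.51, adjusted p 4.24e-09), and the tropomyosin gene Tpm1 (1.39, adjusted p 1.07e-12).

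From P5 to P9 the kit and the time since tamoxifen changed with the stage. In this comparison 3 of the 7 were called lower and 0 higher, where 2.45% of all genes were called lower and 2.67% higher (421 and 458 genes, against 326 and 155 with scaling to endothelial identity markers). Acta2 had 13.5, 12.9 and 14.6 CPM in P9 wt, against 26.4, 35.3 and 26.3 CPM in P5 wt, a log2 fold change of -1.09 ± 0.24 (adjusted p 0.0095). Tagln was at -1.02 ± 0.23 (0.0099) and Myh11 at -0.93 ± 0.22 (0.013), and the libraries of all 3 genes separated by stage. Without P9 wt library 2 none of the 3 was called (0.058 to 0.095), without P5 wt library 3 Tagln was not (0.050), and without P5 wt library 2 or P9 wt library 1 Myh11 was not (0.064 and 0.052). Des (-0.74), Myl9 (-0.59) and Tpm2 (-0.43) did not pass the test (adjusted p 0.16 to 0.40). Their libraries separated by stage as well, and only those of Lmod1 overlapped. The separations are descriptions, with no share of all genes beside them. With these 6 libraries fitted by themselves Des (0.0043) and Myl9 (0.0097) passed too. Of the pericyte markers 0 of 14 were called by edgeR in this comparison, and of the microglia and macrophage markers 6 of 8 were lower, with sums of 9.78 to 12.3 CPM in P9 wt, against 45.3 to 76.5 CPM in P5 wt. Of 7 astrocyte markers 2 were higher, of 11 arterial endothelial markers 1 was higher, and of 10 fibroblast markers 1 was lower. The part of these shifts in the result was not tested.

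From P9 to adult, with 1 kit for both, the members parted. Of the 7 tested, 3 were called higher and 3 lower, where 30.9% of all genes were called higher and 30.3% lower (5294 and 5191 genes, against 9851 and 1872 with scaling to endothelial identity markers). Myh11 had 37.3, 31.8 and 33.9 CPM in adult wt, against 6.41, 5.21 and 7.85 CPM in P9 wt, a log2 fold change of 2.39 ± 0.22 (adjusted p 1.94e-09). Tagln was at 1.78 ± 0.23 (3.50e-07) and Acta2 at 1.59 ± 0.24 (5.24e-06). In the other direction Myl9 had 41.2, 38.3 and 41.3 CPM in adult wt, against 155, 110 and 129 CPM in P9 wt, a log2 fold change of -1.70 ± 0.31 (adjusted p 5.00e-05). Des was at -1.57 ± 0.32 (0.00018) and Tpm2 at -0.80 ± 0.28 (0.017). The stages did not overlap for any of these 6 genes, again a description with no share of all genes beside it. The Tpm2 call was lost without P9 wt library 1 (0.077) and with scaling to endothelial identity markers (-0.15, adjusted p 0.65), which moves the median of all genes by 0.64. Lmod1, at 0.96 ± 0.49 (adjusted p 0.066), was called without P9 wt library 1 (0.048) and with that scaling (1.55, 0.0036).

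The lists divided in the same comparison. All 14 pericyte markers were called lower in adult wt, with a median log2 fold change of -2.53 beside 0.02 for all genes, and their sum was 541 to 663 CPM in adult wt, against 3032 to 4132 CPM in P9 wt. Of the 10 fibroblast markers 7 were lower and 0 higher. All 8 microglia and macrophage markers were higher, with sums of 124 to 302 CPM in adult wt, against 9.78 to 12.3 CPM in P9 wt, and of 7 astrocyte markers 6 were higher and 1 lower. Of the 11 arterial endothelial markers 5 were higher and 5 lower, and of the 15 endothelial identity markers 2 were higher and 11 lower. The part of these shifts in the contractile result was not tested. Contractile partners were split, with 12 higher and 16 lower of 32. Ldb3, a Z-band and dense body protein, had 16.7 ± 2.03 CPM in adult wt and 0.521 ± 0.123 CPM in P9 wt (SD, n = 3 each), a log2 fold change of 4.71 (adjusted p 1.80e-12). Tinagl1, a matrix protein, had 272 ± 7.03 CPM in adult wt and 38.2 ± 0.884 CPM in P9 wt (2.83). The actin crosslinkers Flna (-1.61) and Actn1 (-1.49) were lower. Of the 16 regulators 12 were lower and 1, Mkl2, was higher (0.42). Tbx18, a mural cell transcription factor, fell by 2.64 on the log2 scale (adjusted p 1.87e-06), and Heyl by 1.85.

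**Figure D4:**
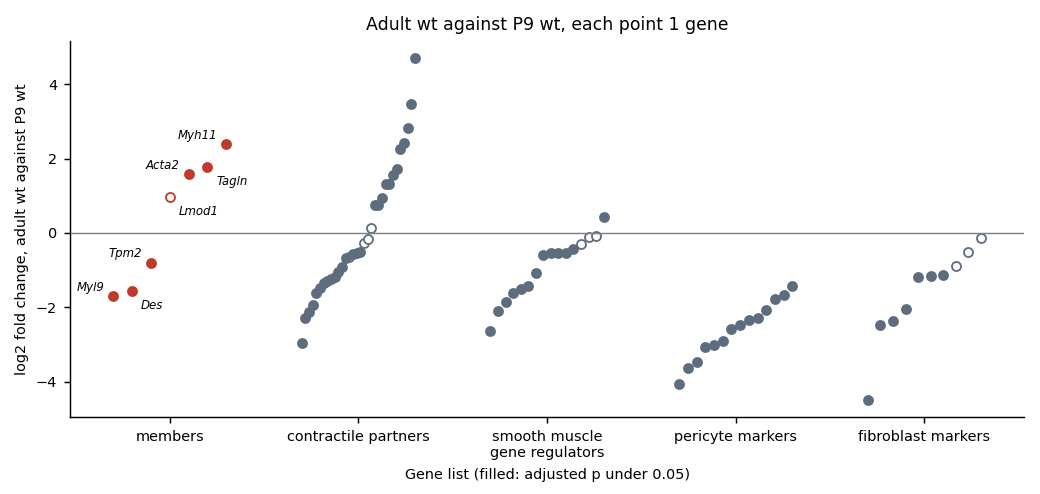
Log2 fold change of adult wt against P9 wt for the 7 tested members (red) and for 4 gene lists (grey), 1 point per gene, filled where the adjusted p was under 0.05. Myh11, Tagln and Acta2 lie above 0, Tpm2, Des and Myl9 below it, Lmod1 is an open point above 0, and all 14 pericyte markers lie below it.

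Over the whole course, adult wt against E15.5 wt, 4 of the 7 were called higher and 1 lower, where 35.2% of all genes were called higher and 34.3% lower (6046 and 5890 genes, against 2333 and 11616 with scaling to endothelial identity markers). Myh11 had 37.3, 31.8 and 33.9 CPM in adult wt, against 1.83, 1.87 and 1.12 CPM in E15.5 wt, a log2 fold change of 4.32 ± 0.26 (adjusted p 3.84e-13). Acta2 was at 3.69 ± 0.28, Tagln at 2.48 ± 0.24 and Lmod1 at 2.15 ± 0.55, with adjusted p of at most 0.00036 and no overlap. Myl9 was lower (-0.75 ± 0.31, adjusted p 0.032), but E15.5 wt library 3, at 36.0 CPM, lay below all 3 adult wt libraries, which had 38.3 to 41.3 CPM, and the call was lost without any 1 of 5 of the 6 libraries (0.062 to 0.26). Des, at 0.76 ± 0.35 (adjusted p 0.052), was called without E15.5 wt library 1 (0.037) or 2 (0.028). Tpm2 was at 0.04 ± 0.29 (adjusted p 0.91) and turned negative without E15.5 wt library 3 (-0.25) or adult wt library 2, and under other scalings, with -1.03 (adjusted p 0.0029) when scaled to endothelial identity markers, which moves the median of all genes by -1.05. Of the 14 pericyte markers 10 were called lower in adult wt and 2 higher, and of the 15 endothelial identity markers 13 were called higher and 1 lower. Of the microglia and macrophage markers 7 of 8 were higher, of the astrocyte markers 7 of 7, and of the 11 arterial endothelial markers 7 were higher and 3 lower, while 5 of 10 fibroblast markers were lower. The part of these shifts in the result was not tested.

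Myl9 took a smaller share of the contractile transcripts in every adult library than in every younger one, a description with no test. Of the members' summed TPM, Myl9 took 84.2% in KO and 87.3% in wt at E15.5, 83.8% in KO and 80.7% in wt at P5, 81.0% in KO and 83.1% in wt at P9, and 43.3% in KO and 44.6% in wt in adults. Acta2 took 4.45% in KO and 2.89% in wt at E15.5, and 29.4% in KO and 29.9% in wt in adults. In adults Tagln took 12.05% in KO and 11.3% in wt, and Myh11 7.60% in KO and 6.66% in wt. The Myl9 share ranged from 37.9% to 48.8% in the adult libraries and from 77.8% to 88.5% in all others. The summed level of the 8 genes at P9 was 39.9 to 85.1 CPM in KO, against 163 to 224 CPM in wt.

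**Figure D5:**
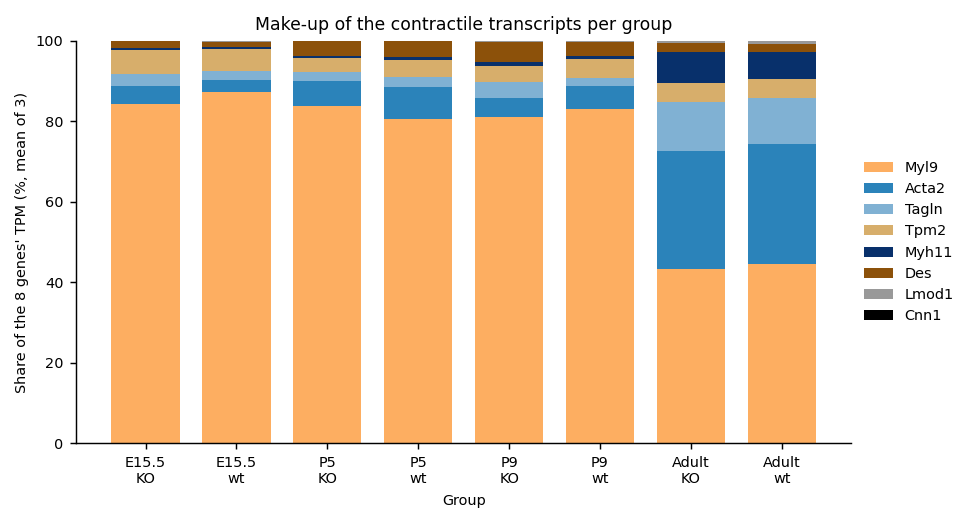
Share of each gene in the summed TPM of the 8 genes (%, mean of 3 libraries) in the 8 groups, KO left of wt at each stage. Myl9 (orange) takes 80.7% to 87.3% up to P9 and 43.3% to 44.6% in adults, where Acta2 (blue) takes 29.4% to 29.9%.

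The genes most like the members were ranked by Pearson's r with the mean of the members' centred log2 CPM, among genes that averaged 50 counts or more. All 8 members entered that mean with equal weight, also Cnn1 and Lmod1 with their low counts. The 24 libraries share stage and depth, so the values are descriptions. Over the 24 libraries the highest were Plxdc2 (r = 0.955), Gstk1 (0.942), Sept8 (0.932) and Plec (0.931). Over what was left after taking out the 8 group means, they were Vtn (0.938), Mrvi1 (0.921), Lama2 (0.920), Rgs4 (0.920), Pde8b (0.917), Cox4i2 (0.916) and Pdgfrb (0.914). Vtn, Cox4i2, Pdgfrb and Atp13a5 (0.905), of the 10 highest in that second ranking, belong to the list of pericyte markers. Ranked for single members, which was done after their values were seen, Myl9 over the 24 libraries was most like Cox4i2 (0.979) and Mrvi1 (0.971), with Notch3 at 0.966 and the light chain kinase gene Mylk at 0.958. Des was most like Enpep (0.968) and Sdc2 (0.967), with Vtn at 0.966. Acta2 was most like Sept8 (0.968) and had Tagln (0.945) as the third, while Tagln was most like the microglia marker Cx3cr1 (0.956) and had Myh11 (0.951) as the third.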

How the data were processed

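RNA of 24 fractions was sequenced as strand-specific polyA libraries on an Ion Proton, per the labels' protocols. Per the submitters' processing notes, the tools were STAR 2.5.3a, SAMtools 1.5, FastQC and Trim Galore 0.4.1, and the build mm10, and the annotation release is not given in the sources used here. The authors deposited per library the read counts per gene on the gene's strand, used for all tests, and TPM values, used only to compare levels between genes. The authors also deposited FPKM values, which recompute from the counts and were not used further. CPM were computed from a library's total over the tested genes times its TMM factor, except the floors, which used the plain total. Tests used edgeR 4.0.16 (R 4.3.3, TMM, prior count 2, quasi-likelihood, all 24 libraries with 1 mean per group, 16 residual degrees of freedom) on the 17159 genes that averaged 10 or more counts in any group. Each SE of an edgeR fold change was computed as the size of the fold change without the prior count, divided by the square root of the test's F value. The approximate 95% intervals used these SE. For genes with low counts, such as Lmod1, the SE and the p-value can therefore disagree. DESeq2 1.42.0, limma 3.58.1, other filters and scalings, a replicate block and leaving out each library were tried. In data simulated for P9, 62.7% of genes changed 2-fold and 31.3% of those changed 1.5-fold were recovered. The simulation changed 67 genes at each of these folds and 66 at 4-fold, with each gene's mean taken from all 24 libraries. In the real P9 comparison 4809 genes were called, so these rates do not measure the power there. The members and gene lists were chosen with earlier results of these data known. Within the lists, up to 4 called genes with the smallest adjusted p were named per comparison. p-values measure the spread between the labelled replicates.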

Additional observations from a re-analysis of the deposited data

Results flagged for a closer look

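The KO difference varied between the 4 stages for 3 genes, by edgeR's quasi-likelihood test of the differences between stages with adjustment over 17159 genes. Acta2 had an adjusted p of 0.000475, with log2 fold changes of 0.60 at E15.5, -0.60 at P5, -1.82 at P9 and -0.10 in adults. Tpm2 had an adjusted p of 0.00717, with 0.03 at E15.5, -0.48 at P5, -1.80 at P9 and -0.05 in adults. Myh11 had an adjusted p of 0.0302, with -0.23 at E15.5, -0.97 at P5, -0.95 at P9 and 0.09 in adults, and its call was lost without any 1 of 7 libraries (0.050 to 0.085).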

How the results depend on the processing

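Of 1252 values of single genes under the alternatives, 1144 kept their direction and their side of the threshold, 33 passed it in the same direction where they had not before, 45 no longer passed it, and 30 changed sign. The causes were not tested. At P5 the count of genes called in KO was 0 in limma, 0 with scaling to endothelial identity markers, 2 without a filter on low counts (Acta2 joined, adjusted p 0.046), and 0 without each library in turn (0 to 0). Without each library in turn the count was 4 to 6 at P9, 2 to 5 averaged over stages, 0 to 3 for P9 against P5 and 2 to 4 for the difference between stages. P9 against P5 gave 5 without a filter and 5 in the compared libraries alone, P5 against E15.5 gave 3 with endothelial scaling, and the difference between stages gave 5 without a filter.

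With endothelial scaling the sign changed at E15.5 in KO for Tpm2 (-0.076) and Des (-0.0018), for P5 against E15.5 in Myl9 (-0.10), Tpm2 (-0.37) and Lmod1 (-0.33), and for adult against E15.5 in Tpm2 (-1.03) and Des (-0.30). Tpm2 in adult against E15.5 was at -0.014 with DESeq2 size factors, -0.016 in DESeq2 with and without independent filtering, -0.030 without a filter and -0.25 without both E15.5 libraries numbered 3, an alternative chosen after seeing the data, which put Des in E15.5 KO at -0.011. Leaving out each library moved the KO difference at E15.5 between -0.0078 and 0.50 for Tagln, -0.53 and 0.13 for Myl9, -0.26 and 0.32 for Tpm2, and -0.25 and 0.34 for Des. It moved Lmod1 at P5 between -0.037 and 0.37. In adults the ranges were -0.23 to 0.055 for Acta2, -0.14 to 0.12 for Tagln, -0.062 to 0.20 for Myh11 and -0.19 to 0.081 for Tpm2. Lmod1 in P9 against P5 ranged from -0.11 to 0.40, and Tpm2 in adult against E15.5 from -0.25 to 0.29.

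Same-numbered KO and wt libraries had correlations of -0.0812 to 0.486, over 0.1 in 2 of 12 pairs. Both of these pairs were at E15.5, at 0.368 for the libraries numbered 2 and 0.486 for those numbered 3. Across these numbers the values at E15.5 were -0.472 for KO 3 with wt 2 and -0.368 for KO 2 with wt 3. What same-numbered libraries of that stage share was not tested. With the replicate block the genes called at P9 numbered 4787, against 4809 without it, and the block changed the call of Des in adult against E15.5 (0.79, adjusted p 0.028) and of no other member. Cnn1 and Lmod1 are limited by depth.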
